A study of Mus musculus with 48 samples.

Results

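The genes described here encode the machinery of RNA polymerase I (Pol I) and RNA polymerase III (Pol III): the subunits of both enzymes, the subunits they share with each other or with RNA polymerase II (Pol II), and the factors that start, end or repress their transcription. The members were taken by gene symbol, without a cut on their values, from a list chosen with earlier results of these data known. In all, 41 genes were found among the 50600 genes of the count files. All 41 passed the filter on low counts, which left 13889 genes for testing. Cytoplasmic and polysomal RNA came from mPDAC cells, a mouse pancreatic ductal adenocarcinoma line that the labels place on an FVB/N x C57BL6 background with an age of 8 weeks. The treated cells had received N6L, an antagonist of the nucleolar protein nucleolin, at 50 µM for 48 h, and the non-treated (NT) cells had not. Each treatment had 3 cultures, numbered 1, 2 and 4 for NT and 1, 2 and 3 for N6L, and the lysate of each culture was split into a cytoplasmic and a polysomal sample, which makes 12 libraries. Every culture was exposed to emetine, which halts ribosomes on their mRNA, and nuclei and mitochondria were spun out of the lysate before the gradient. All cultures are of 1 line, and nothing in the sources says that they were set up on separate days, so the p-values measure the spread between these cultures.

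Pol I transcribes the ribosomal RNA precursor in the nucleolus, where nucleolin is abundant, and Pol III transcribes transfer RNAs, the small ribosomal RNA that Pol I does not make, and other short RNAs. At a ribosomal RNA gene, Ubtf and the selectivity factor built around Taf1a, Taf1b, Taf1c and Taf1d mark the promoter, and Rrn3 brings in the polymerase. At most Pol III genes, TFIIIC (with Gtf3a at the small ribosomal RNA genes) binds inside the gene and places TFIIIB, which recruits Pol III, and Maf1 blocks that recruitment when nutrient signalling is low. The mRNAs of these proteins are themselves made by Pol II and read by ribosomes in the cytoplasm, and it is these mRNAs that were measured.

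The libraries held 19519911 to 44972333 counts. Each is the sum of 4 technical replicates, which differed by little more than counting noise (chi-square over its degrees of freedom, 1.016 to 1.044). For 3 technical replicates of N6L cytoplasm 2, title and description name different cultures. By the same measure their counts matched the rest of culture 2 (1.014 to 1.037) and not culture 1 (11.96 to 12.14). Of 6 ductal and epithelial markers, Krt8, Krt18, Krt19, Cdh1 and Sox9 were present, with a summed level of 6279 to 10234 CPM (counts scaled to a common library size), while Epcam was near 0. Fibroblast, leukocyte and endothelial markers summed to at most 2.08 CPM in any library, endocrine markers were at 0, and of the acinar markers Cpa1 and Ptf1a were at 0 while Cela1 gave the whole sum of 27.6 to 82.7 CPM. N6L culture 3 stood apart: it held the polysome-to-cytoplasm ratio farthest from 0 in 34 of the 41 members (82.9%), against 74.6% of all genes tested. In the NT cytoplasm, culture 4 was farthest from the median in 23 members (56.1%, against 50.8% of all genes tested). CPM are taken over library sizes scaled by the trimmed mean of M values (TMM), so each is relative to the other mRNAs of its library, and in bulk samples fewer cells of a type and less RNA per cell cannot be told apart.

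Without treatment the members were expressed at very different levels per kilobase of transcript. The length is that of the longest annotated protein-coding transcript of each gene, so the order depends on that choice. In the NT cytoplasm the highest were the shared subunit genes Polr2e (272 CPM per kb) and Polr2f (234 CPM per kb), followed by Taf1d (191), Polr1d (143), Polr2h (121), Gtf3a (105) and Polr1c (101). The lowest were Bdp1 (2.7 CPM per kb), Polr3g (4.14), Ttf1 (5.15) and Polr3b (5.75). The catalytic subunits of Pol I lay at 12.9 (Polr1a) and 14.6 (Polr1b) CPM per kb, and those of Pol III at 6.99 (Polr3a) and 5.75 (Polr3b).

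In the cytoplasm N6L changed 12 of the 41 members by edgeR's quasi-likelihood test (Benjamini-Hochberg adjusted p under 0.05 over all genes tested), or 29.3%, beside 28.3% of all genes tested. Ttf1, Polr3b, Bdp1 and Gtf3c1 rose, and Znrd1, Cd3eap, Polr1d, Gtf3a, Gtf3c2, Polr2e, Polr2f and Polr2h fell. The 4 higher members stand beside 14.5% of all genes that rose, and the 8 lower ones beside 13.8% that fell. Of all members, 15 had a log2 fold change above 0 and 26 below, where 52.8% of all genes lay above 0. Their median was -0.14 against 0.04 over all genes. The 3 N6L libraries lay wholly above the 3 NT libraries in 8 members and wholly below in 12, where 29.3% and 25.6% of all genes did so (54.9% in either direction). The heat map of the members shows these shifts by library. The count was 7 without NT culture 1, 6 without NT culture 4 and 2 without N6L culture 2, when Cd3eap and Polr1d alone stayed past the limit. The share of all genes called in those 3 fits was 16%, 15.5% and 9.24%. Ttf1, Polr3b and Gtf3c1 lost their call without either of those NT cultures, Polr2h also without N6L culture 1 or 3, Gtf3c2 without NT culture 1, and Bdp1 and Polr2e without NT culture 4.

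**Figure D1:**
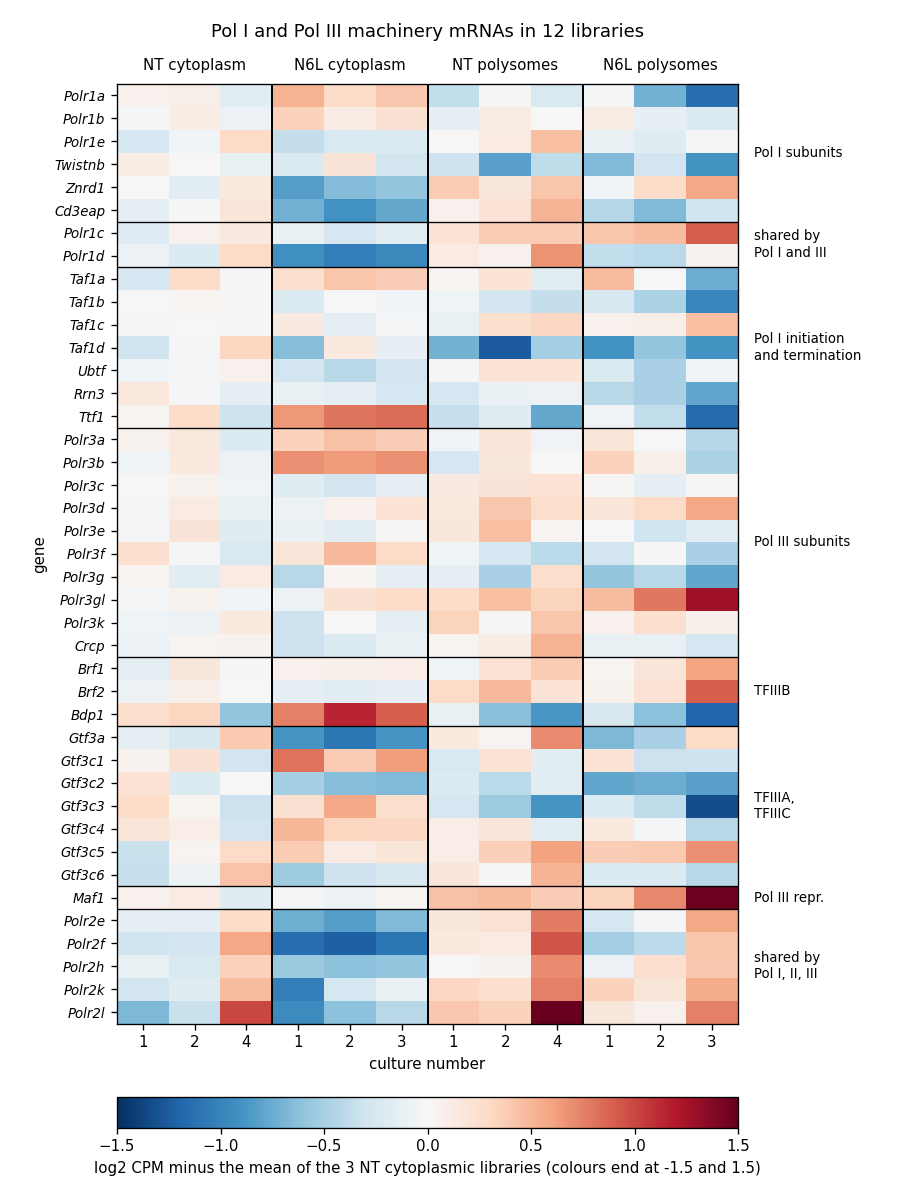
Level of each of the 41 members (rows, grouped by role) in each of the 12 libraries (columns, with culture numbers), as log2 CPM minus the mean of the 3 NT cytoplasmic libraries. The genes of the subunits shared by all 3 polymerases (bottom rows) are blue in the N6L cytoplasm, and Bdp1 and Ttf1 are red there and blue in the polysomes of N6L culture 3.

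In the polysomes 2 of the 41 members changed, both downward: Cd3eap and Gtf3c2. The background was 9.67% of all genes called in either direction, 6.01% higher and 3.66% lower. The members' median log2 fold change was -0.11 against 0 over all genes. Of the 41, 11 lay above 0 and 30 below, where 50.1% of all genes lay above 0. In edgeR 12 members had an unadjusted p under 0.05, beside 26.5% of all genes. The N6L libraries lay wholly above in 2 members and wholly below in 10, where 13.7% and 11.9% of all genes did so (25.6% in either direction). The call of Cd3eap was lost without NT culture 4 or N6L culture 2, as was that of Gtf3c2, which was lost without any of 5 of the 6 cultures and was kept without NT culture 2.

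Within the N6L cultures, polysomes and cytoplasm differed in 20 of the 41 members (48.8%, against 39% of all genes). The ratio was higher in polysomes for 11 members and lower for 9, beside 18.4% and 20.6% of all genes. The N6L polysomal libraries lay wholly above the cytoplasmic ones in 15 members and wholly below in 14, beside 28.4% and 28.5% of all genes (56.9% in either direction). Within the NT cultures, edgeR called 0 of 41 (background 0.209%), and 3 members had an unadjusted p under 0.05, beside 13.4% of all genes. DESeq2 also called 0 members in NT, where it called 1.97% of all genes. There the polysomal libraries lay wholly above in 7 members and wholly below in 3, beside 9.59% and 12.8% of all genes (22.4% in either direction). With the culture as a block, since both libraries come from one lysate, the NT count became 1 (Taf1d, log2 difference -0.82 ± 0.16 (SE), adjusted p = 0.0483 in edgeR). With it 1.46% of all genes were called in NT. The same block kept all 20 N6L calls and added 9: Polr1b, Twistnb, Taf1b, Polr3a, Polr3g and Gtf3c4 as lower in polysomes and Cd3eap, Polr3d and Polr2l as higher. With it the share of all genes called in N6L was 53.7%. When N6L culture 2 was left out 4 calls remained in N6L (8.22% of all genes), and 5 when N6L culture 3 was (11.7% of all genes), and Znrd1, Polr1c, Ttf1 and Bdp1 were past the limit in both cases. With library totals alone as the scaling, 8 members were higher and 13 lower in place of 11 and 9. Over all 13889 genes, 1762 were then higher and 3119 lower, in place of 2559 and 2856.

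The translational index, the N6L polysome-to-cytoplasm difference minus the NT one, was called for 0 of 41 members by edgeR and for 0 by DESeq2, as for 0% of all genes by each of them. An unadjusted p under 0.05 was reached by 6 members (Polr1a, Znrd1, Ttf1, Polr3b, Bdp1 and Gtf3c1) and by 7.73% of all genes. With the culture as a block, 13 members and 2996 of the 13889 genes reached it. No gene was called with the block either (smallest adjusted p = 0.196, edgeR). The 3 N6L ratios lay wholly above the 3 NT ratios in 6 members and wholly below in 10, beside 15.3% and 14.4% of all genes (29.7% in either direction). The index ran from -1.0 (Bdp1) to 0.66 (Polr2f), so a call in N6L and none in NT does not show that the ratios differed between treatments. The 4 cytoplasm and polysome comparisons and the index are built from the same 12 libraries, so their values are given side by side below, without a measure of how they match.

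Among the Pol I subunits, Cd3eap (ENSMUSG00000047649; chr7:19356014-19359483, minus strand, GRCm38) changed in both fractions. Cd3eap, also named Polr1g, pairs with the Polr1e protein in a module that helps the enzyme start and elongate. Its cytoplasmic level was 58.0, 62.9 and 72.9 CPM in NT cultures 1, 2 and 4 and 39.1, 34.2 and 37.9 CPM in N6L cultures 1, 2 and 3. In polysomes it was 67.1, 74.9 and 91.3 CPM in NT and 47.7, 40.7 and 52.1 CPM in N6L. Each N6L library lay below each NT library of the same fraction. Cd3eap fell by 0.80 ± 0.16 (SE) on the log2 scale in the cytoplasm (adjusted p = 0.00436, edgeR) and by 0.73 ± 0.16 in polysomes (adjusted p = 0.0142, edgeR). Its polysome-to-cytoplasm differences, 0.27 ± 0.16 in NT and 0.34 ± 0.16 in N6L, did not pass the limit, and with the culture block the N6L one did (0.33 ± 0.10, adjusted p = 0.024, edgeR).

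Znrd1 (also Polr1h), the small subunit that helps Pol I cleave and proofread its transcript, fell in the cytoplasm and not detectably in polysomes. It measured 58.4, 52.2 and 64.1 CPM in NT cytoplasm and 32.8, 37.1 and 38.5 CPM in N6L cytoplasm, and the groups did not overlap (log2 fold change -0.69 ± 0.17, adjusted p = 0.0104, edgeR). In polysomes it measured 75.8, 65.5 and 77.4 CPM in NT and 56.6, 70.0 and 87.0 CPM in N6L, with overlap and a log2 fold change of -0.03 ± 0.17. The log2 polysome-to-cytoplasm ratios were 0.37, 0.33 and 0.27 in the NT cultures and 0.79, 0.92 and 1.18 in the N6L cultures. All N6L ratios exceeded all NT ratios, and the N6L difference of 0.98 ± 0.17 passed the limit (adjusted p = 0.00427, edgeR). It passed under each of the 17 alternatives, but at 0.43 ± 0.12 (adjusted p = 0.0319, edgeR) once transcript length and GC content were corrected for. The index of Znrd1 was 0.65 ± 0.24 (adjusted p = 0.555, edgeR).

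Polr1a and Polr1b encode the catalytic core of Pol I. Polr1a measured 124, 126 and 106 CPM in NT cytoplasm and 170, 143 and 157 CPM in N6L cytoplasm. Although the N6L libraries all lay above, the log2 fold change of 0.40 ± 0.22 did not pass the limit (adjusted p = 0.191, edgeR). In polysomes Polr1a measured 91.5, 120 and 101 CPM in NT and 116, 72.2 and 54.1 CPM in N6L, where culture 1 was high and the groups overlapped. Its log2 polysome-to-cytoplasm ratio was -0.44, -0.07 and -0.07 in NT and -0.54, -0.98 and -1.54 in N6L, a difference within N6L of -0.95 ± 0.23 (adjusted p = 0.00748, edgeR). That call was lost without N6L culture 2 or 3, and with a length and GC correction (-0.35, adjusted p = 0.106, edgeR).

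Polr1b measured 57.5, 62.6 and 54.6 CPM in NT cytoplasm and 73.6, 63.0 and 68.0 CPM in N6L cytoplasm, with log2 fold change 0.23 ± 0.14. Its polysomal levels were 53.6, 62.9 and 58.3 CPM in NT and 62.8, 53.6 and 50.4 CPM in N6L, which overlapped. Polr1b passed the limit within N6L with the culture block and in no comparison without it (-0.30 ± 0.11, adjusted p = 0.0392, edgeR). Polr1e, the partner of Cd3eap, passed in no comparison, and Twistnb, the stalk subunit that meets Rrn3, passed within N6L with the block (-0.52 ± 0.13, adjusted p = 0.00943, edgeR) and not without it. They had cytoplasmic log2 fold changes of -0.28 ± 0.17 and -0.09 ± 0.20.

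Polr1c and Polr1d form the pair of subunits that Pol I and Pol III share and around which both enzymes assemble. Polr1d measured 160, 147 and 207 CPM in NT cytoplasm and 89.4, 83.6 and 86.6 CPM in N6L cytoplasm. The N6L libraries were all below, close to each other, and the log2 fold change was -0.98 ± 0.20 (adjusted p = 0.00414, edgeR). It was past the limit under each of the 16 alternatives, with -0.58 ± 0.11 under a length and GC correction. In polysomes Polr1d measured 184, 177 and 270 CPM in NT and 131, 128 and 176 CPM in N6L, again without overlap, at -0.54 ± 0.19 (adjusted p = 0.0952, edgeR). Polr1c differed little in the cytoplasm (-0.17 ± 0.16). Both were higher in polysomes than in cytoplasm within N6L, by 0.75 ± 0.20 for Polr1d (adjusted p = 0.0111, edgeR) and 0.78 ± 0.16 for Polr1c (adjusted p = 0.00502, edgeR). With the length and GC correction neither passed, at 0.07 for Polr1d (adjusted p = 0.728, edgeR) and 0.14 for Polr1c (adjusted p = 0.352, edgeR).

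Among the 7 factors for Pol I initiation and termination, Ttf1, which binds the terminator of the ribosomal RNA gene and stops Pol I there, was the 1 that passed in the cytoplasm. Ttf1 (chr2:29060262-29087656, plus strand) measured 21.8, 25.5 and 17.0 CPM in NT cytoplasm and 33.3, 36.9 and 37.7 CPM in N6L cytoplasm. All N6L libraries were above all NT libraries, and Ttf1 rose by 0.75 ± 0.25 on the log2 scale (adjusted p = 0.0362, edgeR). Its polysomal level was 16.6, 18.6 and 12.4 CPM in NT and 20.4, 16.4 and 9.53 CPM in N6L, where the groups overlapped and the log2 fold change was -0.04 ± 0.25. Its log2 polysome-to-cytoplasm ratios were -0.39, -0.45 and -0.45 in NT and -0.71, -1.17 and -1.98 in N6L. The N6L difference of -1.22 ± 0.25 (adjusted p = 0.00507, edgeR) passed under each of the 17 alternatives, while the index of -0.78 ± 0.35 did not (adjusted p = 0.555, edgeR).

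Ubtf, the architectural factor that keeps ribosomal RNA genes open, measured 311, 318 and 335 CPM in NT cytoplasm and 263, 240 and 263 CPM in N6L cytoplasm. Its polysomal levels were 324, 372 and 370 CPM in NT and 276, 229 and 311 CPM in N6L. In both fractions the N6L libraries were all below the NT ones, but neither log2 fold change passed, at -0.33 ± 0.14 (adjusted p = 0.0924, edgeR) in the cytoplasm and -0.39 ± 0.14 (adjusted p = 0.102, edgeR) in polysomes. Rrn3 measured 82.2, 72.6 and 67.3 CPM in NT cytoplasm and 68.3, 66.4 and 62.1 CPM in N6L cytoplasm, groups that overlapped. In polysomes Rrn3 was at 62.0, 69.1 and 69.3 CPM in NT and 55.3, 52.5 and 43.0 CPM in N6L, without overlap and with a log2 fold change of -0.41 ± 0.14 (adjusted p = 0.0871, edgeR). Within N6L its polysome-to-cytoplasm difference of -0.38 ± 0.14 lay just past the limit (adjusted p = 0.0479, edgeR). That call was kept under 4 of the 17 alternatives and was lost when any 1 culture was left out. With the length and GC correction the difference was -0.11 (adjusted p = 0.503, edgeR).

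The selectivity factor genes Taf1a, Taf1b, Taf1c and Taf1d had cytoplasmic log2 fold changes from -0.19 to 0.33, and none passed. Taf1b was lower in polysomes within N6L with the block and not without it (-0.47 ± 0.17, adjusted p = 0.04, edgeR). Taf1d was lower in polysomes than in cytoplasm within N6L (-0.62 ± 0.23, adjusted p = 0.0471, edgeR), a call lost under 7 of the 17 alternatives. Of its exonic bases, 10.1% are shared on the same strand with other annotated genes, small RNA genes among them.

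Of the 10 Pol III subunits, 1 passed in the cytoplasm, Polr3b, which with Polr3a forms the catalytic core. Polr3b (chr10:84622292-84727178, plus strand) measured 27.3, 31.6 and 26.9 CPM in NT cytoplasm and 46.0, 44.5 and 46.0 CPM in N6L cytoplasm. The N6L libraries lay together above the NT libraries, and Polr3b rose by 0.67 ± 0.19 on the log2 scale (adjusted p = 0.0208, edgeR). Its level in polysomes was 23.8, 32.1 and 28.6 CPM in NT and 36.1, 30.1 and 20.5 CPM in N6L, overlapping, with a log2 fold change of 0.04 ± 0.19. Its polysome-to-cytoplasm difference within N6L was -0.65 ± 0.19 (adjusted p = 0.0176, edgeR), and with the length and GC correction it did not pass (-0.26, adjusted p = 0.195, edgeR). Polr3a, the other catalytic subunit, measured 33.7, 36.2 and 28.3 CPM in NT cytoplasm and 41.3, 44.0 and 41.9 CPM in N6L cytoplasm, where the groups did not overlap and the log2 fold change was 0.37 ± 0.17 (adjusted p = 0.108, edgeR). Its polysomal levels were 31.6, 36.8 and 31.5 CPM in NT and 36.8, 32.3 and 24.3 CPM in N6L, with overlap, and the N6L polysome-to-cytoplasm difference passed with the block and not without it (-0.46 ± 0.14, adjusted p = 0.0188, edgeR).

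Polr3g and Polr3gl are paralogs that occupy the same place in the module with which Pol III opens its promoter, and Polr3g is the form linked to undifferentiated and transformed cells. Polr3g measured 12.9, 11.3 and 13.7 CPM in NT cytoplasm and 9.41, 12.8 and 11.4 CPM in N6L cytoplasm, and 11.5, 9.01 and 15.1 CPM in NT polysomes against 8.34, 9.41 and 7.36 CPM in N6L polysomes. Both pairs of groups overlapped, at log2 fold changes of -0.17 ± 0.20 and -0.50 ± 0.20 (adjusted p = 0.131 in polysomes, edgeR), and the N6L polysome-to-cytoplasm difference passed with the block and not without it (-0.42 ± 0.14, adjusted p = 0.034, edgeR). Polr3gl measured 15.8, 16.6 and 15.6 CPM in NT cytoplasm and 15.1, 18.7 and 19.4 CPM in N6L cytoplasm, and 19.3, 21.9 and 20.2 CPM in NT polysomes against 22.0, 27.7 and 38.6 CPM in N6L polysomes. Its polysomal libraries were all higher in N6L, by 0.53 ± 0.19 (adjusted p = 0.096, edgeR), and it was higher in polysomes than in cytoplasm within N6L by 0.73 ± 0.19 (adjusted p = 0.011, edgeR). With the length and GC correction the difference within N6L did not pass (0.16, adjusted p = 0.478, edgeR).

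The log2 ratio of Polr3g to Polr3gl per kilobase was -1.39, -1.66 and -1.29 in NT cytoplasm and -1.78, -1.64 and -1.86 in N6L cytoplasm, which overlapped (exact two-sided permutation test, p = 0.2). In polysomes it was -1.85, -2.38 and -1.51 in NT and -2.50, -2.66 and -3.49 in N6L, all lower in N6L (p = 0.1 in an exact two-sided permutation test, which cannot give a smaller p with 3 cultures a group). The plot of paralog ratios shows both pairs of paralogs by library. Of the other Pol III subunits, Polr3f, which sits in the same module as Polr3g, was lower in polysomes than in cytoplasm within N6L (-0.56 ± 0.18, adjusted p = 0.0249, edgeR). The call of Polr3f was lost without N6L culture 2 or 3. With the length and GC correction its difference changed sign (0.11, adjusted p = 0.57, edgeR). Polr3d was higher in polysomes within N6L with the block and not without it (0.29 ± 0.10, adjusted p = 0.0385, edgeR). Without it Polr3c, Polr3d, Polr3e, Polr3k and Crcp passed in no comparison, with cytoplasmic log2 fold changes from -0.21 to 0.06.

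**Figure D2:**
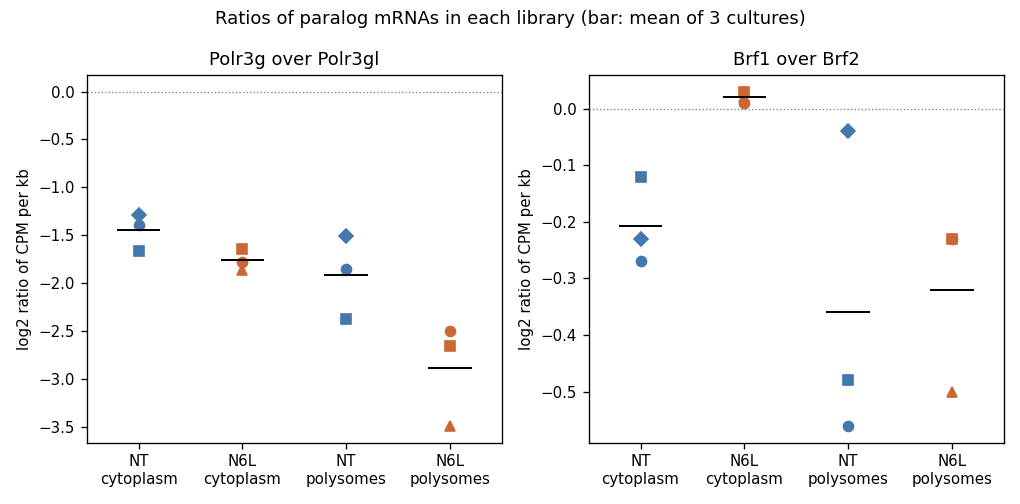
Log2 ratio of CPM per kilobase for Polr3g over Polr3gl (left) and Brf1 over Brf2 (right) in each library, with points shaped by culture and bars at the mean of 3 cultures. The Polr3g to Polr3gl ratio in N6L polysomes lies at -2.50, -2.66 and -3.49, below all other libraries, and the Brf1 to Brf2 ratio in the N6L cytoplasm lies close to 0.

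TFIIIB consists of Bdp1, the TATA-binding protein and either Brf1, used at most Pol III genes, or Brf2, used at genes with an upstream promoter. Bdp1 (ENSMUSG00000049658; chr13:100017994-100104070, minus strand), which has the longest coding sequence of the members, measured 31.0, 32.3 and 17.1 CPM in NT cytoplasm and 43.4, 57.1 and 47.9 CPM in N6L cytoplasm. NT culture 4 was low, the groups did not overlap, and Bdp1 rose by 0.88 ± 0.28 on the log2 scale (adjusted p = 0.0299, edgeR). Its polysomal level was 23.9, 16.7 and 14.1 CPM in NT and 21.8, 16.8 and 11.3 CPM in N6L, with overlap and a log2 fold change of -0.12 ± 0.28. The log2 polysome-to-cytoplasm ratios were -0.37, -0.95 and -0.28 in NT and -0.99, -1.76 and -2.07 in N6L. The N6L ratios were all below the NT ones, and the difference within N6L was -1.57 ± 0.28 (adjusted p = 0.00427, edgeR). It passed under each of the 17 alternatives, but with a correction for transcript length and GC content it shrank to -0.49 ± 0.15 (adjusted p = 0.0454, edgeR). The index was -1.0 ± 0.39 (adjusted p = 0.555, edgeR).

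Brf1 measured 37.0, 45.8 and 40.2 CPM in NT cytoplasm and 42.8, 43.1 and 43.8 CPM in N6L cytoplasm, and 39.0, 47.4 and 53.0 CPM in NT polysomes against 41.6, 46.4 and 61.6 CPM in N6L polysomes. Brf2 measured 32.4, 36.1 and 34.1 CPM in NT cytoplasm and 30.9, 30.6 and 31.3 CPM in N6L cytoplasm, and 41.8, 48.0 and 39.5 CPM in NT polysomes against 35.4, 39.6 and 63.5 CPM in N6L polysomes. Neither paralog passed between treatments, and Brf2 alone of them was past the limit between polysomes and cytoplasm within N6L (0.58 ± 0.19, adjusted p = 0.0304, edgeR), with a ratio of 1.02 in culture 3 beside 0.20 and 0.37 in cultures 1 and 2. With the length and GC correction the Brf2 difference did not pass (0.07, adjusted p = 0.728, edgeR). The log2 ratio of Brf1 to Brf2 per kilobase was -0.27, -0.12 and -0.23 in NT cytoplasm and 0.01, 0.03 and 0.02 in N6L cytoplasm (exact two-sided permutation test, p = 0.1, the smallest possible). In polysomes the same ratio overlapped between treatments (exact two-sided permutation test, p = 0.9).

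Of Gtf3a and the 6 TFIIIC genes, 3 passed in the cytoplasm. Gtf3a, the zinc-finger factor of the small ribosomal RNA genes, measured 133, 125 and 193 CPM in NT cytoplasm and 79.6, 69.5 and 80.2 CPM in N6L cytoplasm, all lower in N6L (log2 fold change -0.97 ± 0.26, adjusted p = 0.0146, edgeR). Polysomal Gtf3a was at 163, 152 and 242 CPM in NT and 92.3, 105 and 181 CPM in N6L, overlapping through N6L culture 3. Of the exonic bases of Gtf3a, 59.1% are shared on the opposite strand with Mtif3, and because the strand setting of the counting is not given in the sources used here, its reads cannot be told apart from those of that gene.

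Gtf3c2, a TFIIIC subunit that takes part in binding the internal promoter, measured 114, 85.4 and 97.5 CPM in NT cytoplasm and 69.4, 63.1 and 62.3 CPM in N6L cytoplasm. In polysomes it measured 85.1, 74.0 and 88.4 CPM in NT and 57.2, 58.7 and 55.7 CPM in N6L. The N6L libraries lay below all NT libraries in both fractions, at log2 fold changes of -0.61 ± 0.14 (adjusted p = 0.00884, edgeR) and -0.53 ± 0.14 (adjusted p = 0.0357, edgeR). Gtf3c2 (chr5:31156005-31180144, minus strand) shares 38.9% of its exonic bases on the same strand with the annotated gene Gm29609, so its count is uncertain to that extent.

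Gtf3c1, the large TFIIIC subunit that contacts the internal promoter, measured 58.7, 66.6 and 46.9 CPM in NT cytoplasm and 99.7, 74.0 and 87.8 CPM in N6L cytoplasm. The groups did not overlap, and Gtf3c1 rose by 0.60 ± 0.20 on the log2 scale (adjusted p = 0.0361, edgeR), a call that was lost without any 1 culture other than NT culture 2. Polysomal Gtf3c1 was at 48.3, 65.9 and 50.4 CPM in NT and 65.4, 45.4 and 45.8 CPM in N6L, with overlap. Within N6L the polysome-to-cytoplasm difference was -0.74 ± 0.20 (adjusted p = 0.0121, edgeR).

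Gtf3c3, which bridges TFIIIC to TFIIIB, measured 33.6, 28.4 and 22.2 CPM in NT cytoplasm and 32.5, 41 and 33.2 CPM in N6L cytoplasm, and 23.3, 18.9 and 15.0 CPM in NT polysomes against 24.0, 21.2 and 11.0 CPM in N6L polysomes. Both pairs of groups overlapped. Its log2 polysome-to-cytoplasm ratios were -0.52, -0.59 and -0.56 in NT and -0.44, -0.95 and -1.59 in N6L, and the difference within N6L was -0.92 ± 0.26 (adjusted p = 0.015, edgeR). The call of Gtf3c3 and that of Gtf3c1 within N6L were lost without N6L culture 2 or 3. With the length and GC correction neither passed, at -0.25 for Gtf3c3 (adjusted p = 0.22, edgeR) and -0.42 for Gtf3c1 (adjusted p = 0.0538, edgeR). Gtf3c4 was lower in polysomes within N6L with the block and not without it (-0.47 ± 0.12, adjusted p = 0.00916, edgeR), and Gtf3c5 and Gtf3c6 passed in no comparison.

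Maf1, the repressor of Pol III that the mTOR kinase keeps inactive in growing cells, measured 150, 156 and 127 CPM in NT cytoplasm and 141, 136 and 148 CPM in N6L cytoplasm, with overlap. In polysomes it measured 195, 200 and 185 CPM in NT and 181, 237 and 398 CPM in N6L, where N6L culture 3 was the highest library and culture 1 the lowest. The log2 fold change in polysomes of 0.49 ± 0.22 did not pass (adjusted p = 0.17, edgeR). Its log2 polysome-to-cytoplasm ratio was 0.37, 0.36 and 0.54 in NT and 0.36, 0.80 and 1.43 in N6L. Within N6L the difference of 0.94 ± 0.22 passed (adjusted p = 0.00741, edgeR). That call was lost without N6L culture 2 and with the length and GC correction (adjusted p = 0.182, edgeR). The lowest difference over the 17 alternatives was 0.29.

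The 5 subunits that all 3 polymerases share, Polr2e, Polr2f, Polr2h, Polr2k and Polr2l, lay on the same side of 0 in each comparison. In the cytoplasm all 5 log2 fold changes were below 0 with TMM, with median-ratio (RLE) size factors and with library totals, and 3 of 5 passed. Polr2f (chr15:79141009-79151774, plus strand) measured 162, 163 and 298 CPM in NT cytoplasm and 89.9, 85.1 and 93.8 CPM in N6L cytoplasm. NT culture 4 was the highest library, no groups overlapped, and Polr2f fell by 1.21 ± 0.30 on the log2 scale (adjusted p = 0.0106, edgeR). In polysomes Polr2f measured 220, 217 and 381 CPM in NT and 140, 151 and 266 CPM in N6L, overlapping through N6L culture 3, with a log2 fold change of -0.55 ± 0.29. Polr2e measured 280, 282 and 373 CPM in NT cytoplasm and 186, 174 and 195 CPM in N6L cytoplasm, without overlap (-0.75 ± 0.22, adjusted p = 0.0229, edgeR). Its polysomal levels of 348, 360 and 527 CPM in NT and 257, 305 and 461 CPM in N6L overlapped.

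Within N6L all 5 shared subunits had polysome-to-cytoplasm differences above 0 with each of these scalings, from 0.77 for Polr2k to 1.05 for Polr2f under TMM. Polr2e, Polr2f, Polr2h and Polr2k passed, and Polr2l, the lowest of them at 7.57 to 41.9 CPM, did not (adjusted p = 0.0581, edgeR) unless blocked by culture (1.0 ± 0.16, adjusted p = 0.00189, edgeR). Without N6L culture 2, or without N6L culture 3, 0 of the 5 passed within N6L while all 5 differences stayed above 0. With the length and GC correction Polr2e, Polr2f and Polr2h were no longer called, and Polr2k was (0.80 ± 0.21, adjusted p = 0.0239, edgeR). Over the 17 alternatives the lowest difference was 0.05 for Polr2e, 0.11 for Polr2f and 0.10 for Polr2h. In NT the 5 differences were also above 0, from 0.27 to 0.68, and none passed. The index was above 0 for all 5, from 0.33 to 0.66, and none passed. NT culture 4 held the highest NT cytoplasmic level of each of the 5, and without it their median cytoplasmic log2 fold change was -0.45 in place of -0.75 and 1 of 5 passed, and 0 of 5 passed without N6L culture 2. Polr2k has an annotated pseudogene, and how reads that map to both were counted is not given in the sources used here.

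**Figure D3:**
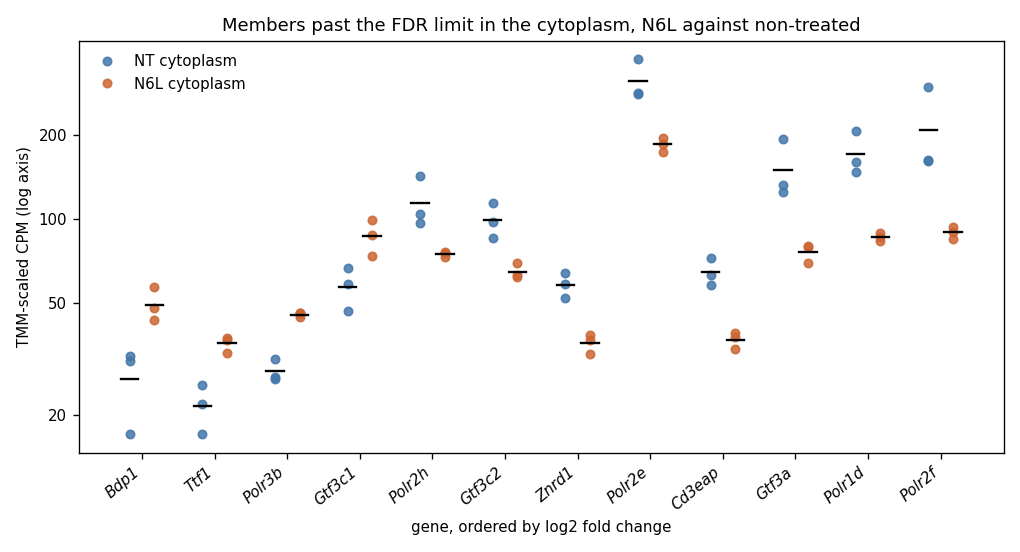
Cytoplasmic level of the 12 members past the limit between N6L and NT, as TMM-scaled CPM on a log axis, with 1 point for each culture and bars at the mean of 3. Each of the 4 members on the left is higher in all N6L cultures and each of the 8 on the right is lower, and the N6L points of Polr1d span only 83.6 to 89.4 CPM.

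**Figure D4:**
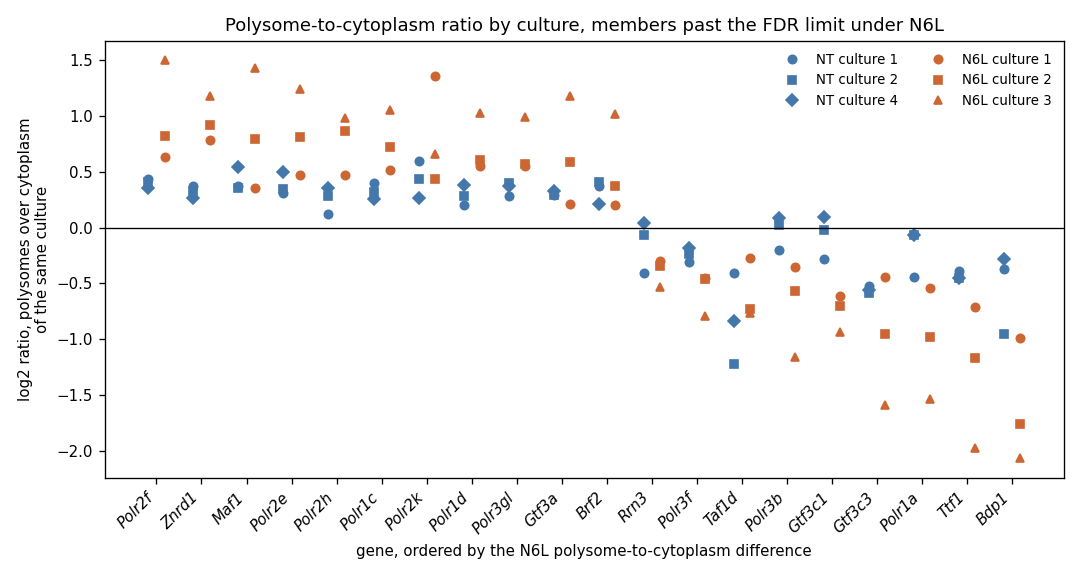
Log2 ratio of polysomal to cytoplasmic CPM within each culture for the 20 members past the limit in N6L, ordered by that difference. N6L culture 3 (triangles) is farthest from 0 in most genes, at 1.5 for Polr2f and -2.07 for Bdp1, and Polr2k, with 1.36 in N6L culture 1, is an exception.

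The members called in opposite directions lay at different coding lengths. In the cytoplasm the 4 higher members had coding sequences of 2577 to 7413 nucleotides (median 4851), and the 8 lower ones of 369 to 2850 (median 540). Within N6L, the 11 members higher in polysomes had 297 to 1260 nucleotides (median 630) and the 9 lower ones 948 to 7413 (median 2646). Across the 41 members, the Spearman correlation between coding length and the log2 fold change was 0.69 in the cytoplasm (0.56 without NT culture 4), -0.71 for the N6L polysome-to-cytoplasm difference and 0.13 in polysomes. Across 12110 genes tested with a coding sequence the same correlation was 0.49, -0.61 and 0.08, so a relation of the same sign was present over all genes. In NT, where no member was called, it was -0.64 for the members and -0.44 for all genes. These are descriptions across genes, which share the 12 libraries and are not independent. The Spearman correlation between GC content and the N6L polysome-to-cytoplasm difference was 0.54 in the members and 0.58 in all genes. The plot of coding length against the differences shows both slopes, in opposite directions, in the cytoplasm and in the N6L ratio.

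**Figure D5:**
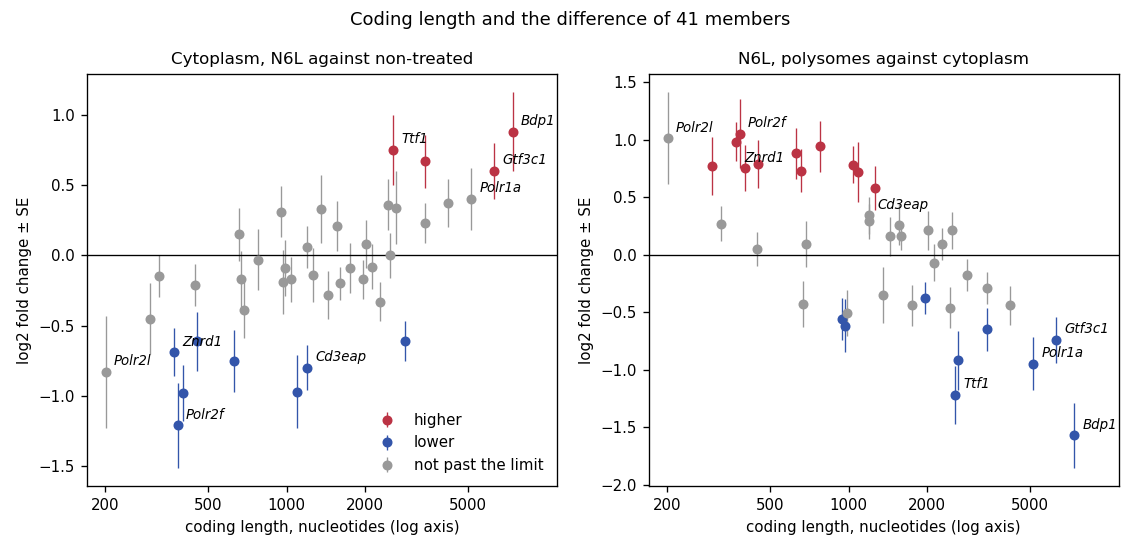
Coding length on a log axis against the log2 fold change ± SE of the 41 members, for N6L against NT in the cytoplasm (left) and for polysomes against cytoplasm in N6L (right). Long coding sequences such as Bdp1 and Gtf3c1 lie above 0 on the left and below 0 on the right, and short ones such as Polr2f and Znrd1 lie the other way.

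A fit in which each library was corrected for transcript length and GC content called another set of members. In the cytoplasm it called 10 members, 2 higher and 8 lower, beside 28.4% of all genes under the same correction (1960 higher and 1984 lower). Ubtf (-0.57 ± 0.11, adjusted p = 0.00345, edgeR), Rrn3 (-0.39 ± 0.10, adjusted p = 0.0157, edgeR) and Polr3e joined Cd3eap, Polr1d, Gtf3a, Gtf3c2 and Polr2f among the lower ones. Polr3gl joined Ttf1 among the higher. Of the calls that held, the log2 fold change of Polr2f became -0.55 ± 0.13, that of Gtf3a -0.56 ± 0.13 and that of Ttf1 0.48 ± 0.17. Polr3b, Bdp1, Gtf3c1, Znrd1, Polr2e and Polr2h were no longer called. In polysomes the count was 10 in place of 2, while the share of all genes called went from 9.67% to 20.6%. Over all 13889 genes, 1401 were then higher and 1460 lower in polysomes, and 1 member was higher and 9 lower. Cd3eap (-0.85 ± 0.13), Gtf3a, Gtf3c2, Ubtf (-0.55 ± 0.11), Polr2f, Polr1d, Polr3e, Rrn3 (-0.44 ± 0.11) and Polr3c fell, and Polr3gl (0.51 ± 0.14) rose. Within N6L the polysome-to-cytoplasm count was 6 in place of 20 (15.8% of all genes in place of 39%), with Ttf1, Taf1d, Bdp1, Znrd1 and Polr2k kept and Polr3k added. Across the members, the Spearman correlation between coding length and the corrected log2 fold change was 0.29 in the cytoplasm and -0.59 for the N6L ratio.

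Ncl, the gene of nucleolin, was read beside the members because its protein is the target of N6L. Its mRNA measured 974, 1556 and 1477 CPM in NT cytoplasm and 1157, 1297 and 1261 CPM in N6L cytoplasm, with overlap (-0.11 ± 0.31, adjusted p = 0.812, edgeR). In polysomes it measured 885, 813 and 923 CPM in NT and 798, 478 and 231 CPM in N6L, all lower in N6L but not past the limit (-0.80 ± 0.31, adjusted p = 0.122, edgeR). Within N6L its polysome-to-cytoplasm difference was -1.3 ± 0.32 (adjusted p = 0.00837, edgeR). An antagonist of the protein need not change its mRNA, so these levels do not check the treatment.

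Other genes of the same processes were read from lists chosen with the members. Beside their counts stand the shares of all genes given above, 14.5% higher and 13.8% lower in the cytoplasm, 3.66% lower in polysomes, and 18.4% higher and 20.6% lower in polysomes within N6L. Of 8 Pol II subunit genes that the polymerases do not share, 4 fell in the cytoplasm (Polr2d, Polr2g, Polr2i and Polr2j) and 0 rose. Within N6L, 5 of the 8 were higher in polysomes and the catalytic subunit genes Polr2a (-1.34 ± 0.26, adjusted p = 0.00461, edgeR) and Polr2b (-0.67 ± 0.23, adjusted p = 0.0321, edgeR) were lower. Of 9 further genes of Pol III transcription, edgeR called 0 in the cytoplasm. There 1 had an unadjusted p under 0.05 (beside 42.5% of all genes), and DESeq2 called 1 (beside 33.1%). Within N6L Snapc2 was higher and Ssb, Pou2f1 and Zfp143 were lower in polysomes. Of 12 nucleolar regulators of ribosomal RNA genes, 4 rose (Baz2a, Ercc6, Phf8 and Kdm2b) and 1 fell (Tcof1) in the cytoplasm. In polysomes 2 of those 12 fell, Tcof1 (-1.27 ± 0.27, adjusted p = 0.0133, edgeR), which works with Pol I and Ubtf, and Nolc1 (-0.88 ± 0.22, adjusted p = 0.024, edgeR). Within N6L 8 of the 12 were lower in polysomes and Sirt7 was higher. Of 7 polymerase assembly factors, Gpn2 and Gpn3 fell in the cytoplasm, and within N6L both were higher and Rpap2 lower in polysomes.

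Promoter sequence was looked up for the members from the RefSeq table (GRCm38.p6), which matched 34 of the 41. In the 250 bases before the start, 9 motifs were searched on both strands, chosen with the results known. The motif CCGGAAG (or its reverse complement CTTCCGG), which members of the ETS family of factors bind, was present in 12 of 34 members (35.3%), in 15.9% of 10092 tested genes and in 6.91% of 32851 promoters. CACGTG, the letters bound by Myc and related factors, was in 5 (14.7%, against 9.74% of tested genes), CCAAT in 10 (29.4%, against 40.8%), GGGCGG in 15 (44.1%, against 63.7%), TGACGTCA in 3 (8.82%, against 3.11%) and TATAAA in 1 (2.94%, against 8.07%). The longer consensus motifs of Zbtb33, Nrf1 and Zfp143 were in 0 of the 34, and in 0.941%, 1.86% and 0.704% of tested genes. The first motif was held by all 4 members that rose in the cytoplasm and by Cd3eap, Gtf3c2 and Polr2f of those that fell. It was also held by Polr1c, Polr3g, Taf1a, Taf1c and Gtf3c6, which were not called in the cytoplasm. Its share among all genes that rose or fell was not computed, and whether the motif goes with the response was not tested. The stretches that follow, the last 120 bases before the start in 5′ to 3′ order on the strand of the gene, show it close to the start in 3 of the genes that rose and in both genes that fell in each fraction; capitals mark the motif. The windows are chr2:29060143-29060262 (plus strand) for Ttf1, chr10:84622178-84622297 (plus) for Polr3b, chr13:100104071-100104190 (minus) for Bdp1, chr7:19359484-19359603 (minus) for Cd3eap and chr5:31180145-31180264 (minus) for Gtf3c2.
Ttf1: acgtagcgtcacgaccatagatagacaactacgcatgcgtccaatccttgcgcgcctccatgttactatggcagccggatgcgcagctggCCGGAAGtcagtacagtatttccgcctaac
Polr3b: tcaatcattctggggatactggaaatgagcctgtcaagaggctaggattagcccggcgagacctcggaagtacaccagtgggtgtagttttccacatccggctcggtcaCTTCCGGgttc
Bdp1: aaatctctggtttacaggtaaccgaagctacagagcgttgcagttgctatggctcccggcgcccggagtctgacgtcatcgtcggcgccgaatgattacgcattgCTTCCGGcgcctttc
Cd3eap: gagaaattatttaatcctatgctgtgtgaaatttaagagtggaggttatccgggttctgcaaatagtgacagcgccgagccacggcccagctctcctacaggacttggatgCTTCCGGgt
Gtf3c2: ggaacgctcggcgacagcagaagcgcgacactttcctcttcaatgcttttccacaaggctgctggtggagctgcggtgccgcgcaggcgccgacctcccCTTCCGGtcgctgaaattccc
The first base of the match lies 9 (Cd3eap) to 30 (Ttf1) bases before the start, and its presence in genes of both directions is a description of these windows, with no statement on which factor was bound.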

How the data were processed

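RNA was polyadenylated RNA from the cytoplasm and the polysomal fractions of a sucrose gradient, made into libraries with a stranded mRNA kit. The authors deposited raw counts per gene, made after demultiplexing with bcl2fastq 2.18.0.12 and alignment with STAR to mm10, and counted with HTSeq 0.5.3 (per the submitters' processing notes). Whether counting used strand, and how reads with several positions were handled, is not stated there or in the methods.

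The 4 technical replicates were summed to 12 libraries of 19519911 to 44972333 counts, so counting error was small and the 3 cultures a group set the precision. Genes were filtered with filterByExpr, scaled with TMM (factors 0.883 to 1.102) and fitted in edgeR 4.0.16 with 4 group means, 8 residual degrees of freedom and quasi-likelihood tests. P-values were Benjamini-Hochberg adjusted over 13889 genes, with a limit of 0.05. Log2 levels used a prior count of 2. Fold changes are given ± SE. The script was tested on simulated data. Ratios of paralogs were tested by exact permutation.

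Members, lists and tests were chosen with earlier results of these data known. 1 gene of the lists is not reported here. Values in every library are given for, in each comparison, the members past the limit with the 4 largest and 4 smallest fold changes, for 11 core members whatever their values, and for Ncl. Positions and lengths come from GENCODE vM21 (GRCm38), which matched 50376 of 50600 identifiers, and 99.8% of tested genes had a length and GC content.

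Polysomal and cytoplasmic libraries of one culture come from one lysate, and their deviations from the group means correlated at 0.364 to 0.645 in NT and 0.0368 to 0.229 in N6L, so a block by culture was one alternative. Others were DESeq2 1.42.0, RLE size factors, library totals, other filters, single technical replicates, the groups compared alone, the conflicting labels left out, splines on length and GC content, and each culture left out.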

Additional observations from a re-analysis of the deposited data

How the results depend on the processing

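With 3 cultures a group, 1 culture decides many calls. Leaving out each culture in turn, 2 (without N6L culture 2) to 12 members were called in the cytoplasm in place of 12, 0 (without NT culture 4 or N6L culture 2) to 4 (without N6L culture 1) in polysomes in place of 2, and 4 (without N6L culture 2) to 21 between polysomes and cytoplasm in N6L in place of 20. The share of all genes called in polysomes moved as well, from 9.67% to 4.44% when NT culture 4 was dropped. It was 1.04% on dropping N6L culture 2, and rose to 11.2% when N6L culture 1 was the one removed. For polysomes the count was 4 with DESeq2 (14.6% of all genes, in place of 9.67%). It was 1 with library totals (10% of all genes), without a filter (6.66%) and with 1 technical replicate alone (7.53%). It was also 1 with the culture number as a replicate block (9.76%). With only the groups compared it was 0 (2.46%), and with the length and GC correction 10 (20.6%). Culture numbers pair nothing across treatments in the labels, and same-numbered cultures correlated at 0.00756 to 0.296. Between polysomes and cytoplasm in NT the count of 0 (beside 0.209% of all genes) became 2 without a filter (2.5%). It became 1 with a replicate block by culture, paired by lysate (1.46%), and 3 with the block and the length and GC correction (3.79%). In N6L the count of 20 became 6 with that correction (15.8% of all genes in place of 39%). It became 13 with the correction and the block (31.2%), and 29 with the block alone (53.7%). With the correction the N6L differences of Polr3f (0.11, and 0.10 with the block) and Gtf3a (-0.03 both without and with the block) changed sign. The cause was not tested. The translational index was called for 0 members in every alternative. Of 564 values of single genes under the alternatives, 435 kept direction and side of the limit, 125 kept the direction and lost the call, and 4 changed sign. Library totals moved the median of all genes from 0.04 to 0.19 in the cytoplasm and from 0.03 to -0.11 for the N6L ratio, so changes are relative to the other mRNAs.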
